A study of Mus musculus with 4 samples.

Results

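The genes described here encode chemokines, interleukins and related cytokines, their receptors, and a few complement and acute-phase proteins. They were chosen by name from the deposited expression table, which holds 9114 genes. The name rule matched 61 rows, and leaving out Ccl21a and Ackr2 left 59 genes. The RNA came from meningeal lymphatic endothelial cells of old male mice (C57BL/6J, 20 to 24 months). At 4 weeks before collection, 5 µL of AAV1, a serotype of adeno-associated virus, had been injected into the cisterna magna. In the mVEGF-C group the virus carried mouse VEGF-C, the growth factor of lymphatic vessels, and in the eGFP group it carried the fluorescent protein eGFP. Both cargoes were under the CMV promoter, which is active in many cell types, so expression of the cargo need not be limited to the sorted cells. Live single cells negative for CD45, the common leukocyte antigen, and positive for CD31 and podoplanin were sorted. Meninges of 10 mice were pooled for each library, and there were 2 libraries per group.

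Chemokines are small secreted proteins that guide leukocytes along gradients through G-protein-coupled receptors, and atypical chemokine receptors bind the same ligands and take them up. Many interleukin and other cytokine receptors, though not all, are assembled from a ligand-binding chain and a signalling chain that several receptors can share. Many signal through JAK kinases and STAT transcription factors. Lymphatic endothelium is known for secreting the CCR7 ligands CCL21 and CCL19, which draw dendritic cells and T cells into lymphatic vessels and lymph nodes.

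Depth was 25610683 to 28632461 reads per library on the genes of the table. Values are normalised read counts, which are reads divided by a size factor of each library. The lymphatic marker Prox1, a transcription factor that sets lymphatic identity, had 47743 and 37805 normalised counts in mVEGF-C libraries and 39586 and 34631 in eGFP libraries. All 7 lymphatic markers listed had a row, and 4 of them had a log2 fold change (mVEGF-C minus eGFP) above 0. Their summed level was 537316 and 449529 in mVEGF-C and 439255 and 498513 in eGFP libraries, so the groups overlapped. Of 15 leukocyte and macrophage markers 4 had a row, and their summed level was 36199 and 30064 in mVEGF-C and 38679 and 40820 in eGFP libraries. Of these, Mrc1 carried most of the sum and is also known from lymphatic endothelium, and Fcer1g, a signalling chain of Fc receptors in myeloid cells, had 273 and 899 in mVEGF-C and 1654 and 2572 in eGFP libraries. Ptprc, which encodes CD45, Cd68 and Csf1r were among the 11 markers not analysed here. Of 9 lymphocyte markers 3 had a row, with a summed level of 43.8 and 66.0 in mVEGF-C and 146 and 176 in eGFP libraries, and Cd3e was at 0 in at least 1 library. Of 9 meningeal fibroblast markers 6 had a row, with a summed level of 81317 and 49882 in mVEGF-C and 76675 and 34809 in eGFP libraries. Of 8 mural markers 4 had a row, with a summed level of 12711 and 10108 in mVEGF-C and 18643 and 15367 in eGFP libraries. Of 7 blood endothelium markers 6 had a row, with a summed level of 28033 and 32635 in mVEGF-C and 21241 and 44936 in eGFP libraries. Flt1 had 30058 in eGFP 2, against 4294 to 9446 in the other libraries, whereas Plvap and Slc2a1 were lowest in eGFP 2. The 6 pan-endothelial markers summed to 97820.5 and 95481 in mVEGF-C and 75196 and 86474 in eGFP libraries. The part of these cell types in the results below was not tested, and fewer cells of a type cannot be told apart from less RNA per cell.

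As read from the values, the genes of the table were limited by the spread between replicates. Between replicates, log2(reads + 1) had a standard deviation of 2.999 at most in the mVEGF-C pair and of 2.00 at most in the eGFP pair. On this scale replicates thus differed by 4.242 at most in the mVEGF-C pair and by 2.828 at most in the eGFP pair. These limits still leave wide differences between replicates, above all in the mVEGF-C pair. Genes with wider ones are absent from the table, and p-values are too small by an amount the table does not give. Many cytokine genes known from lymphatic vessels, such as Ccr7, Il7 and Il33, were not analysed here.

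Sequences are shown for the members on which the results turn most. The first set gives the 250 bases before the annotated start of Ccl9 and Lif, whose libraries lay low in the mVEGF-C group, of Ackr3, whose libraries lay high there, and of Il6st, the most abundant member. They were chosen after their values were seen and are credited to RefSeq on the assembly GRCm38.p6, written 5′ to 3′. Capitals mark a match to the AP-1 motif TGANTCA.
Ccl9, chr11:83578637-83578886, minus strand: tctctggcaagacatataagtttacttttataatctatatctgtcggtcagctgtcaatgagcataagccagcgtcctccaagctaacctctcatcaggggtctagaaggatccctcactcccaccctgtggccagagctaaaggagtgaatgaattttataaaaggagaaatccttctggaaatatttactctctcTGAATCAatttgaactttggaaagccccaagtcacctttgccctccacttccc
Lif, chr11:4257318-4257567, plus strand: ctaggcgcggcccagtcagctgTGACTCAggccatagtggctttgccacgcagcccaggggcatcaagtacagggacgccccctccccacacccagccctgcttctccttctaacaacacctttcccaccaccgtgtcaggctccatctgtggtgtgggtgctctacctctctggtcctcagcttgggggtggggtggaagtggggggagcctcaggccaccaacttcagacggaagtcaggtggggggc
Ackr3, chr1:90203730-90203979, plus strand: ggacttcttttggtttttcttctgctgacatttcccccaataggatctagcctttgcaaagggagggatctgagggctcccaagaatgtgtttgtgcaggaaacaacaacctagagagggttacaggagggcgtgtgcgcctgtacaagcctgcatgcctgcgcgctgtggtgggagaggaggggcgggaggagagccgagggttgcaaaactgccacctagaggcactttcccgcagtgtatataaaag
Il6st, chr13:112463820-112464069, plus strand: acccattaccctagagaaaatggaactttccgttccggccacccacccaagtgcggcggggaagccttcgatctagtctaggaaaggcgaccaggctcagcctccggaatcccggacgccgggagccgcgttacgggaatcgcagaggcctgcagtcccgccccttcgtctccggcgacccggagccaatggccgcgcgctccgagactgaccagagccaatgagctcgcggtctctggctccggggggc

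Of the 59 genes, 50 matched a promoter entry. The AP-1 letters occurred in 6 of the 50 (12%), against 7.82% of 27025 genes with an entry. The 6 were C1qbp, Ccl27a, Ccl9, Il16, Il17rb and Lif. Of these, Ccl9 and Lif had negative log2 fold changes past 3 in size and C1qbp and Il17rb positive ones past 3. Ccl27a and Il16 stood at -0.45 and 0.72. Cxcl15 and Ccl19, at 3.70 and -3.28, held no AP-1 match. The STAT motif TTCNNNGAA occurred in 6 of the 50 (12%), among them Csf2rb2 and Il18r1, against 8.13% of all genes. The interferon-stimulated response element (ISRE) occurred in 1 (2%), Ccl19, against 3.46%. Each motif was searched on both strands, and the printed windows hold no overlapping matches. A match describes letters only, and its relation to the fold changes was not tested.

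The second set gives the first 120 coding bases of Csf2rb and Csf2rb2, from GENCODE transcripts on GRCm38. These neighbouring genes share stretches of sequence, so reads from them can be assigned to either copy. Capitals mark the 4 bases that differ.
Csf2rb: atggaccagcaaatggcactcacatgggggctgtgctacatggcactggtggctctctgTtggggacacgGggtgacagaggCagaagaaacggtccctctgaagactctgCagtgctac
Csf2rb2: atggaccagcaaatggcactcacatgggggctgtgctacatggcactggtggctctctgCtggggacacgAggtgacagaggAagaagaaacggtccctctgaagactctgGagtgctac

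The study set mVEGF-C against eGFP, and no member passed the test of that comparison. Of the 59 genes, 58 had a mean of at least 10 normalised counts and were tested. None was called by limma at a Benjamini-Hochberg adjusted p under 0.05, in a fit on log2(normalised count + 1) in which 2.14% of the 9063 genes tested were called (0.828% higher and 1.31% lower). At an unadjusted limma p under 0.05 there were 14 of the 58 (24.1%), against 11.8% of all genes. Of the 14, 6 were higher in mVEGF-C libraries (10.3% of the 58), against 5.09% of all genes. The other 8 were lower (13.8% of the 58), against 6.7% of all genes. This share depended on eGFP 2, without which it was 1 of 58 (1.72%), against 4.4% of all genes. It was 9 of 58 without mVEGF-C 1, 14 of 58 without mVEGF-C 2 and 11 of 58 without eGFP 1, against 11.1%, 14.9% and 8.94% of all genes. Non-overlapping groups were seen for 24 of the 58 (41.4%), near the background of 39.2%. Of these, 15 lay higher in mVEGF-C libraries (25.9% of the 58), against 19.4% of all genes, and 9 lower (15.5%), against 19.8%. edgeR's quasi-likelihood test called 2 members (3.45%), C1qbp and Csf2rb2, against 1.61% of all genes. DESeq2 called 8 (13.8%), against 6.82% of all genes, and these were C1qbp, Cxcl15, Il17rb, Cxcr2 and Il20rb among the higher and Ccl9, Csf2rb2 and Il18rap among the lower. The median log2 fold change (mVEGF-C minus eGFP) of the members was 0.02, against -0.02 for all genes, and their median absolute log2 fold change was 0.91, against 0.79.

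**Figure D1:**
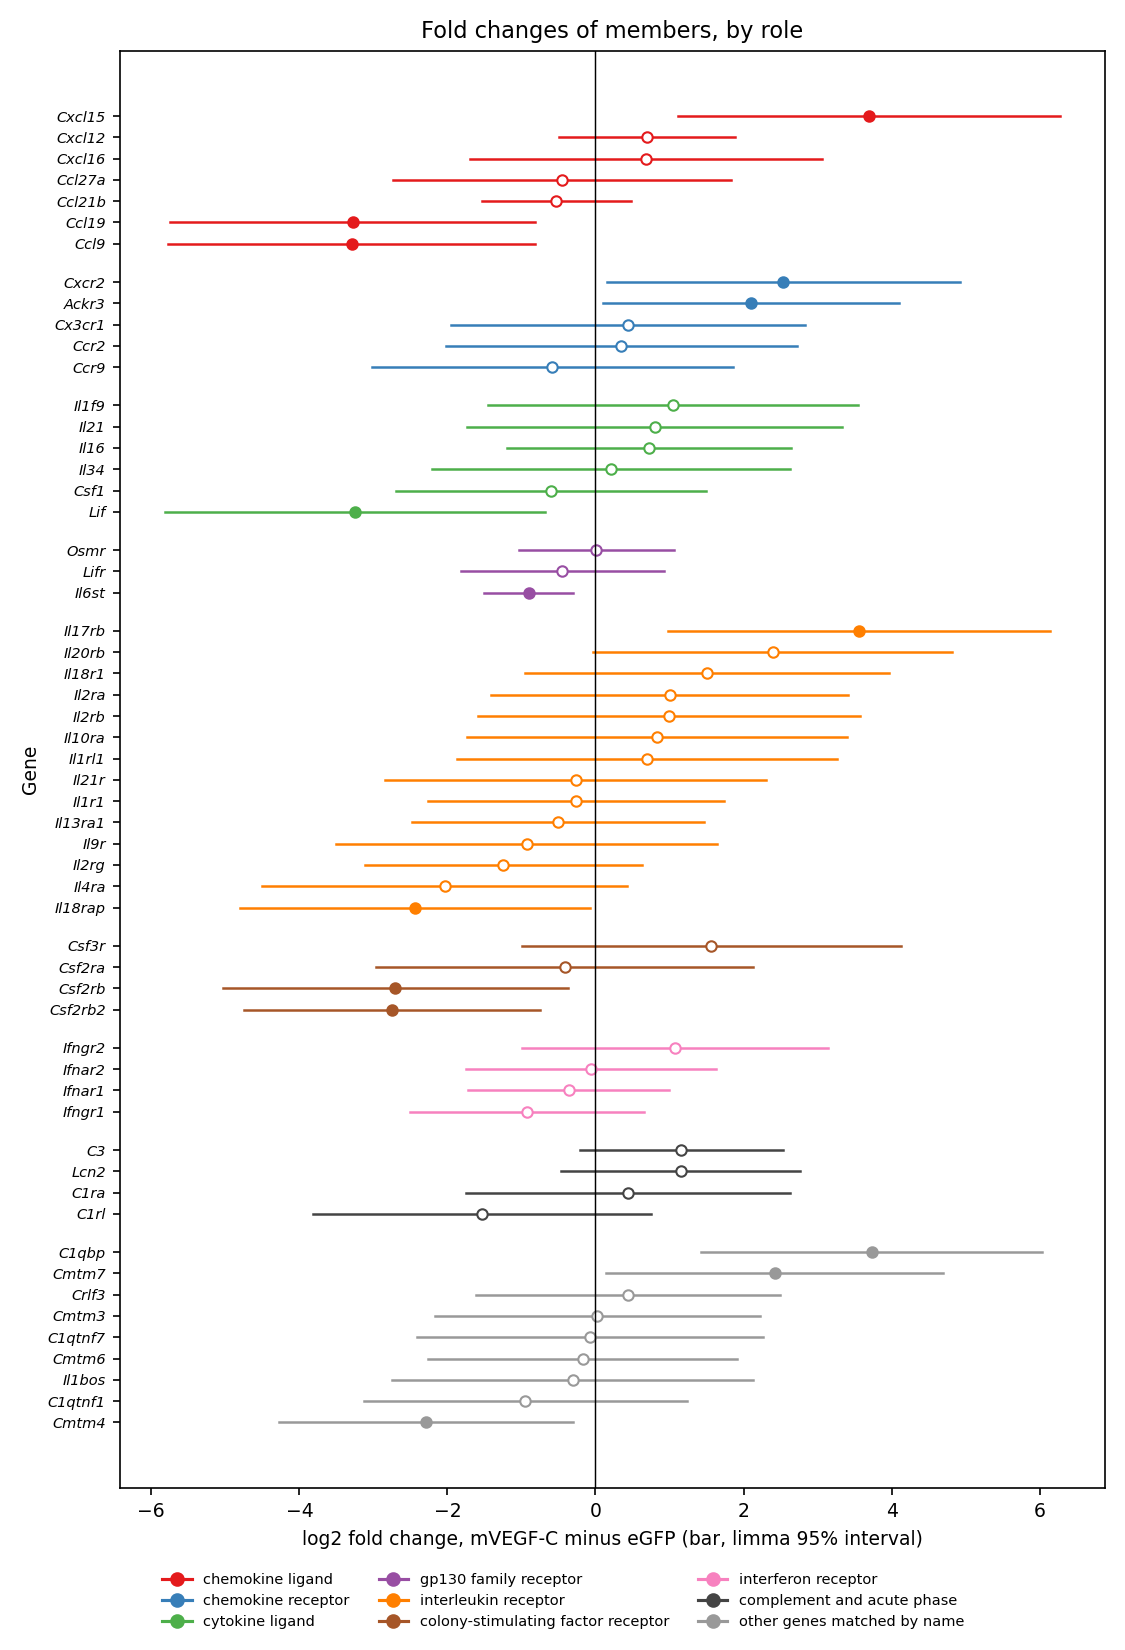
Log2 fold changes (mVEGF-C minus eGFP, horizontal axis) of 56 of the 58 members tested, grouped by role and coloured by role, with the limma 95% interval as a bar. Filled points are the 14 members with an unadjusted p under 0.05, and none of them had an adjusted p under 0.05.

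Chemokine ligands differed from one another in direction. Ccl9, a CC chemokine of mice that acts on myeloid cells, had 50.2 and 60.4 normalised counts in mVEGF-C libraries, against 524 and 576 in eGFP libraries. Both mVEGF-C libraries lay far below both eGFP libraries, and the replicates of each group were close. The log2 fold change was -3.30 ± 1.26 (SE; limma, adjusted p = 0.179), and it lay between -3.43 and -3.16 with any library left out. DESeq2 called it (adjusted p = 0.00221) and edgeR did not (adjusted p = 0.204). Ccl19, a CCR7 ligand, had 16.0 and 221 in mVEGF-C libraries, against 211 and 1678 in eGFP libraries. The groups overlapped, since mVEGF-C 2 lay just above eGFP 1, and its log2 fold change of -3.28 (limma, adjusted p = 0.179) was -1.43 without mVEGF-C 1, -1.79 without eGFP 2 and -5.13 without mVEGF-C 2, where it was called (adjusted p = 0.014). Cxcl15, a mouse CXC chemokine first known from lung, had 119 and 116 in mVEGF-C libraries, against 18.8 and 3.21 in eGFP libraries. This is 111 and 125 reads in mVEGF-C libraries and 21 and 3 in eGFP libraries, and the groups did not overlap. The fold change was 3.70 ± 1.31 on the log2 scale (SE; limma, adjusted p = 0.125), and DESeq2 called it (adjusted p = 0.029). With any library left out it lay between 2.58 and 4.81.

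For the most abundant chemokine genes, Cxcl12 and Ccl21b, the groups overlapped. Cxcl12, which retains leukocytes and progenitor cells through CXCR4 and is scavenged by ACKR3, had 7459 and 12820 normalised counts in mVEGF-C libraries, against 12745 and 2873 in eGFP libraries. The groups overlapped, eGFP 2 was the lowest library, and the log2 fold change of 0.69 (95% interval -0.49 to 1.88; limma, adjusted p = 0.766) was -0.38 without eGFP 2. The summed level of the fibroblast markers was also lowest in eGFP 2, at 34809, against 49882 to 81317 in the other libraries, although Dcn and Pdgfra were not lowest there. Between the mVEGF-C libraries the order was opposite. The marker sum was 81317 in mVEGF-C 1 and 49882 in mVEGF-C 2, whereas Cxcl12 was higher in mVEGF-C 2. The part of fibroblast RNA in the result was not tested. Ccl21b, a copy of the CCL21 gene, had 12971 and 7202 in mVEGF-C libraries, against 11400 and 17041 in eGFP libraries. The log2 fold change was -0.53 (limma 95% interval -1.53 to 0.48, adjusted p = 0.804), and it lay between -0.95 without mVEGF-C 1 and -0.10 without mVEGF-C 2. Of its 31-base words, 83.3% occur in Ccl21a, which had 131390 and 102660 in mVEGF-C and 110810 and 122040 in eGFP libraries, so reads can be assigned to either copy. Cxcl16, made as a transmembrane chemokine, and Ccl27a, known from skin, stood at log2 fold changes of 0.68 and -0.45, and 18.3% of the exon bases of Cxcl16 are shared with a gene on the opposite strand. Cxcl11 is annotated as a polymorphic pseudogene and was too low to be tested, with 8.55 and 16.7 in mVEGF-C and 7.16 and 3.21 in eGFP libraries.

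Of the 6 chemokine receptor genes, 5 had log2 fold changes above 0, the median being 0.97. Ackr3 and Cxcr2 had an unadjusted p under 0.05. Ackr3, the atypical receptor that takes up CXCL12 and, in mice, also adrenomedullin, a peptide that drives lymphatic growth, had 3335 and 2225 normalised counts in mVEGF-C libraries, against 928 and 436 in eGFP libraries. Its lowest mVEGF-C library was above its highest eGFP library. The mean was 2780 ± 785 in mVEGF-C and 682 ± 348 in eGFP libraries (SD, n = 2 each), and the log2 fold change was 2.10 ± 1.02 (SE; limma, adjusted p = 0.380). It lay between 1.55 and 2.64 with any library left out. For comparison, its ligand Cxcl12 stood at 0.69. Cxcr2, a receptor for neutrophil-attracting CXC chemokines, had 600 and 1054 in mVEGF-C libraries, against 170 and 109 in eGFP libraries, also without overlap. This gave a log2 fold change of 2.54 ± 1.22 (SE; limma, adjusted p = 0.366; DESeq2, adjusted p = 0.0335). Cx3cr1, Ccr2 and Ccr9, better known from myeloid cells and lymphocytes, had overlapping groups and log2 fold changes of 0.44, 0.35 and -0.58. The 6 genes together took 0.0215% and 0.0288% of the reads in mVEGF-C libraries, against 0.0135% and 0.00697% in eGFP libraries (exact permutation test, two-sided p = 0.33, the smallest that 2 against 2 libraries allow).

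**Figure D2:**
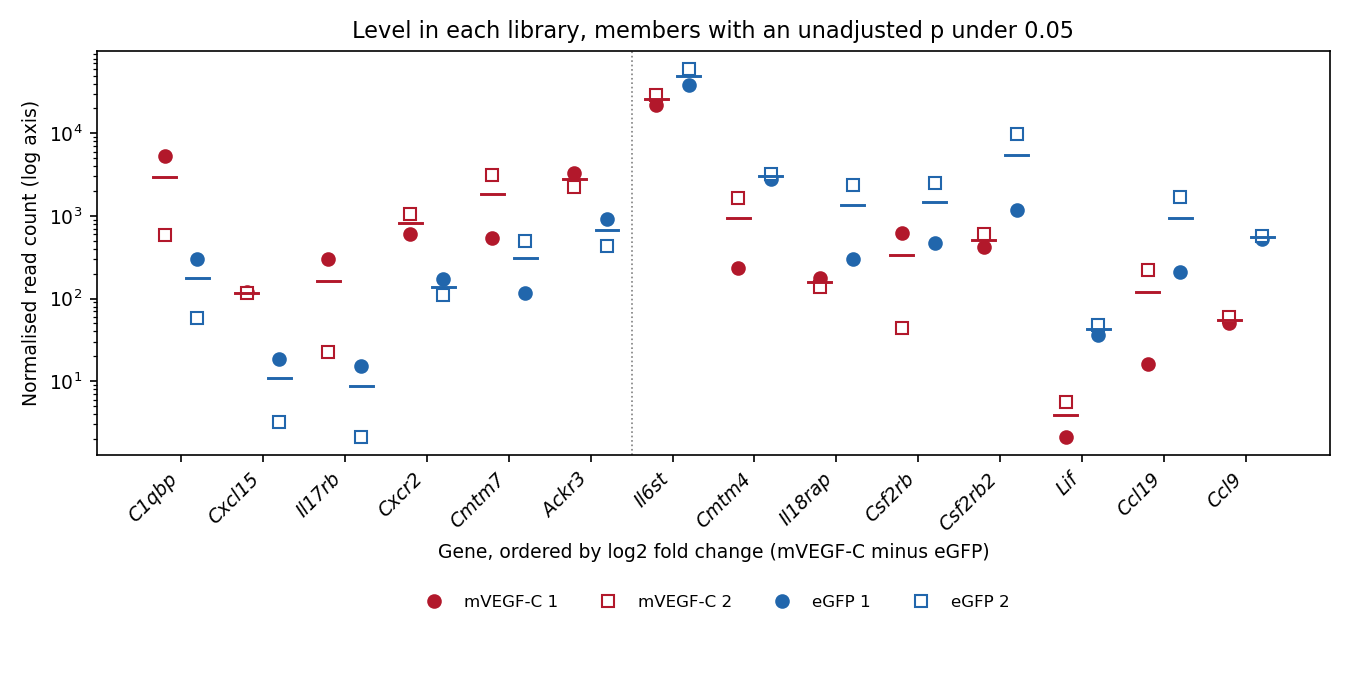
Normalised read count (log axis) in each library for the 14 members with an unadjusted p under 0.05, ordered by log2 fold change, with mVEGF-C libraries left of eGFP libraries and a line at each group mean. For Ccl9, Lif, Ackr3, Cxcr2 and Il6st the groups are apart, whereas for Csf2rb and Ccl19 the groups overlap.

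Among the cytokines, Lif had the most separate groups. Lif, which signals through LIFR and gp130, had 2.14 and 5.57 normalised counts in mVEGF-C libraries, against 36.7 and 48.1 in eGFP libraries. These are 2 and 6 reads in mVEGF-C libraries and 41 and 45 reads in eGFP libraries, so the gene was close to undetected in the mVEGF-C libraries. The log2 fold change was -3.24 ± 1.31 (SE; limma, adjusted p = 0.213; edgeR, adjusted p = 0.231), between -3.78 and -2.71 with any library left out. The other 5 cytokine genes had an unadjusted p above 0.05. Il16, a ligand of CD4 whose exons share 15.3% of their bases with a gene on the opposite strand, stood at 0.72, Il1f9, an IL-1 family cytokine also called IL-36 gamma, at 1.05, and Il21, a T-cell cytokine, at 0.80. Csf1 and Il34, which both act on the macrophage receptor CSF1R, stood at -0.60 and 0.21, and both had overlapping groups.

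Of the 3 genes of gp130-family receptor chains, Il6st had an unadjusted limma p under 0.05, and Lifr and Osmr did not. That of Il6st was 0.334 without the variance trend and 0.24 in DESeq2. Il6st encodes gp130, the signalling chain shared by the receptors of interleukin 6, LIF, oncostatin M and related cytokines. Of the 59 genes it had the highest normalised count, with 22181 and 29265 normalised counts in mVEGF-C libraries, against 37994 and 59758 in eGFP libraries. Both mVEGF-C libraries lay below both eGFP libraries. The log2 fold change was -0.90 ± 0.31 (SE), the limma 95% interval being -1.50 to -0.30 (adjusted p = 0.0948). It was called after quantile normalization (limma, adjusted p = 0.00422, at -1.03, with 2.27% of all genes called), but not by edgeR or DESeq2 (adjusted p = 0.176 and 0.660), and it was -0.58 without eGFP 2. Its partner chains stood closer to 0. Lifr, the LIF receptor, had 3839 and 5149 in mVEGF-C libraries, against 5126 and 7157 in eGFP libraries (log2 fold change -0.45; limma, adjusted p = 0.906), and between -0.69 and -0.21 with any library left out. Osmr, the oncostatin M receptor, had 11734 and 9483 in mVEGF-C libraries, against 11138 and 9814 in eGFP libraries. The fold change was 0.01 on the log2 scale (95% interval -1.03 to 1.06), and its sign turned to -0.071 with libraries scaled to 1 total.

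All 59 genes together took 0.453% and 0.493% of the reads in mVEGF-C libraries, against 0.577% and 0.59% in eGFP libraries (exact permutation test, two-sided p = 0.33, the smallest possible). Without Il6st the shares were 0.375% and 0.383% in mVEGF-C libraries, against 0.424% and 0.372% in eGFP libraries, and the groups overlapped. Per kilobase of annotated exon, Il6st had a mean of 3361 normalised counts, ahead of C3 at 1377, Lcn2 at 1354 and Ifngr1 at 1323. Ccl21b is left out of this order because its annotation is the coding part alone.

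The interleukin receptor genes went both ways, with 7 of 14 log2 fold changes above 0 and a median of 0.21. Il17rb, a chain of the receptor for interleukin 25, had 302 and 22.3 normalised counts in mVEGF-C libraries, against 15.2 and 2.14 in eGFP libraries. The groups did not overlap, but mVEGF-C 1 stood far above the other libraries, and eGFP 2 held 2 reads. The log2 fold change of 3.56 ± 1.31 (SE; limma, adjusted p = 0.153; DESeq2, adjusted p = 0.0195) was 1.71 without mVEGF-C 1, 2.37 without eGFP 2 and 5.41 without mVEGF-C 2, where limma called it (adjusted p = 0.0105). Il20rb, a chain of the receptors of the interleukin 20 group, had 1277 and 268 in mVEGF-C libraries, against 140 and 87.7 in eGFP libraries (log2 fold change 2.39; limma, adjusted p = 0.434; DESeq2, adjusted p = 0.0496), and 1.27 without mVEGF-C 1.

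The chains of the interleukin 18 receptor differed in direction. Il18rap, the accessory chain, had 177 and 138 normalised counts in mVEGF-C libraries, against 303 and 2391 in eGFP libraries. Both mVEGF-C libraries lay below both eGFP libraries, and eGFP 2 set most of the difference. Its log2 fold change of -2.44 ± 1.21 (SE; limma, adjusted p = 0.396; DESeq2, adjusted p = 0.0317) was -0.95 without eGFP 2 and -3.93 without eGFP 1. Il18r1, the ligand-binding chain, had 413 and 283 in mVEGF-C libraries, against 133 and 108 in eGFP libraries (log2 fold change 1.50; limma, adjusted p = 0.744). Among the other chains, Il4ra, which binds interleukin 4, had 281 and 31.6 in mVEGF-C libraries, against 516 and 298 in eGFP libraries (log2 fold change -2.04; limma, adjusted p = 0.574), and the fold change was -3.59 without mVEGF-C 1 and -0.48 without mVEGF-C 2. Its partner Il13ra1 had 1333 and 1012 in mVEGF-C libraries, against 1686 and 1612 in eGFP libraries (log2 fold change -0.50; limma, adjusted p = 0.930). Il2rg, the common gamma chain, stood at -1.24, Il1r1, the interleukin 1 receptor, at -0.27 and Il1rl1, the receptor for interleukin 33, at 0.70. Exons of Il2rg share 30.5% of their bases with another gene on the same strand, so part of its reads are uncertain. The chains better known from lymphocytes, Il2ra, Il2rb, Il9r, Il10ra and Il21r, lay between -0.93 and 1.00, and apart from Il2ra their groups overlapped.

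Of the 4 genes of colony-stimulating factor receptors, both copies of the common beta chain had an unadjusted p under 0.05. Csf2rb encodes the beta chain shared by the receptors of GM-CSF and interleukins 3 and 5, and Csf2rb2 is the mouse duplicate specific to interleukin 3. They lie on chromosome 15, Csf2rb2 from 78282507 to 78305721 and Csf2rb from 78325752 to 78353847 (GRCm38). Csf2rb2 had 423 and 599 normalised counts in mVEGF-C libraries, against 1177 and 9802 in eGFP libraries. The groups did not overlap, and eGFP 2 stood far above the rest. Its log2 fold change was -2.75 ± 1.02 (SE; limma, adjusted p = 0.155), edgeR and DESeq2 called it (adjusted p = 0.0336 and 0.0135), and it was -1.22 without eGFP 2 and -4.28 without eGFP 1. Csf2rb had 627 and 43.7 in mVEGF-C libraries, against 475 and 2499 in eGFP libraries, and the groups overlapped (log2 fold change -2.70; limma, adjusted p = 0.289). Without mVEGF-C 1 it was -4.61 and called (limma, adjusted p = 0.0347), and without mVEGF-C 2 it was -0.80. As the printed coding bases show, the copies are close. Of the 31-base words of Csf2rb2, 28.6% also occur in Csf2rb, so the split between the copies is uncertain. Their sum was 1050 and 643 in mVEGF-C libraries, against 1652 and 12300 in eGFP libraries, without overlap. Of the 4 leukocyte and macrophage markers, Fcer1g also had lower values in both mVEGF-C libraries, whereas Mrc1, Cd74 and Cx3cr1 had overlapping groups. The part of such cells in the result was not tested. Csf3r, the G-CSF receptor, and Csf2ra, the GM-CSF binding chain, stood at 1.56 and -0.41.

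**Figure D3:**
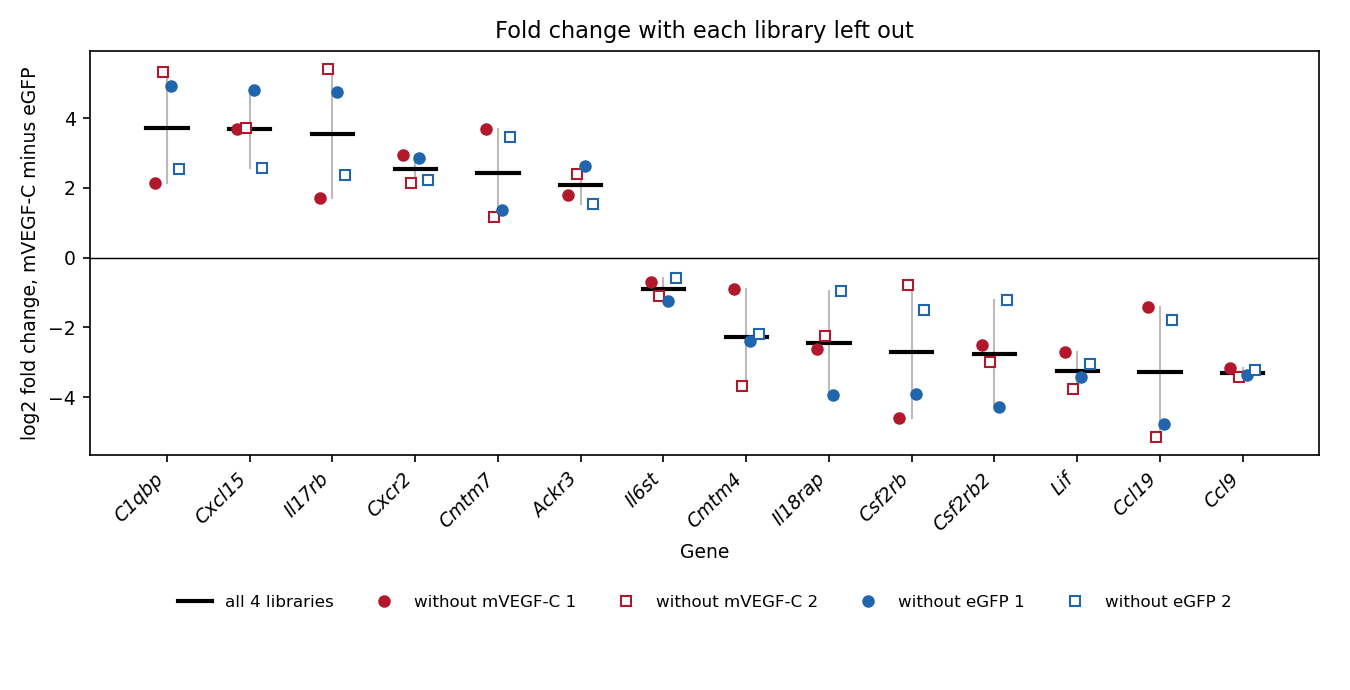
Log2 fold change (mVEGF-C minus eGFP) of the same 14 members with all 4 libraries (black line) and with each library left out. The signs held for all 14 in these fits, but for the 12 with non-overlapping groups the sign could not change. The size ranged from -3.43 to -3.16 for Ccl9 and from -4.61 to -0.80 for Csf2rb.

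The interferon receptors were expressed in every library and none had an unadjusted p under 0.05. Ifnar1 and Ifnar2 encode the chains of the type I interferon receptor. Ifnar1 had 6539 and 3418 normalised counts in mVEGF-C libraries, against 7126 and 5177 in eGFP libraries, and Ifnar2 had 2439 and 2839 in mVEGF-C libraries, against 3680 and 2042 in eGFP libraries. Their log2 fold changes were -0.36 (interval -1.72 to 0.99) and -0.06 (interval -1.74 to 1.63). For the chains of the interferon gamma receptor, Ifngr1 had 1401 and 4221 in mVEGF-C libraries, against 5651 and 3799 in eGFP libraries. Ifngr2 had 592 and 4273 in mVEGF-C libraries, against 675 and 847 in eGFP libraries. The replicates of the mVEGF-C group lay further apart than the groups did, and the log2 fold changes were -0.93 and 1.07 (limma, adjusted p = 0.761 and 0.807). For Ifngr1 it was -0.13 without mVEGF-C 1 and -1.73 without mVEGF-C 2, and for Ifngr2 it was -0.35 without mVEGF-C 2.

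Of the complement and acute-phase genes, 4 of 5 had log2 fold changes above 0 and none had an unadjusted p under 0.05. C3, the central complement component, had 15933 and 3788 normalised counts in mVEGF-C libraries, against 6847 and 1769 in eGFP libraries. The groups overlapped, and its log2 fold change of 1.16 (limma, adjusted p = 0.559) was 0.12 without mVEGF-C 1 and 0.18 without eGFP 2. Lcn2, an iron-siderophore-binding acute-phase protein, had 3566 and 6130 in mVEGF-C libraries, against 3062 and 1448 in eGFP libraries, without overlap (log2 fold change 1.15; limma, adjusted p = 0.667). It lay between 0.61 and 1.69 with any library left out, the lowest without eGFP 2. C1ra and C1rl, a protease of the C1 complex and its relative, stood at 0.44 and -1.53. Of 25 complement genes outside the members 9 were tested, and limma called 0, with 0 at an unadjusted p under 0.05 and 0 called by edgeR or DESeq2.

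The name rule also took in genes that are not cytokines or receptors of them. C1qbp, a mitochondrial matrix protein that can bind the globular heads of complement C1q, was called by edgeR and DESeq2 but not by limma. It had 5341 and 586 normalised counts in mVEGF-C libraries, against 302 and 57.7 in eGFP libraries. The groups did not overlap, but each pair differed widely, and the log2 fold change of 3.73 ± 1.18 (SE) had adjusted p = 0.0618 in limma, 0.0423 in edgeR and 0.00716 in DESeq2. It was 2.14 without mVEGF-C 1, 2.55 without eGFP 2 and 5.32 without mVEGF-C 2, where limma called it (adjusted p = 0.00558). Cmtm7 and Cmtm4 belong to a family of membrane proteins with a MARVEL domain. Cmtm7 had 539 and 3114 in mVEGF-C libraries, against 116 and 501 in eGFP libraries (log2 fold change 2.42; limma, adjusted p = 0.366), and 1.15 without mVEGF-C 2. Cmtm4 had 234 and 1629 in mVEGF-C libraries, against 2825 and 3227 in eGFP libraries (log2 fold change -2.29; limma, adjusted p = 0.294), and -0.89 without mVEGF-C 1. The groups did not overlap for either gene, and their fold changes had opposite signs. Cmtm3 and Cmtm6 stood at 0.03 and -0.17, and the remaining genes matched by name, C1qtnf1, C1qtnf7, Crlf3 and Il1bos, lay between -0.95 and 0.44.

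**Figure D4:**
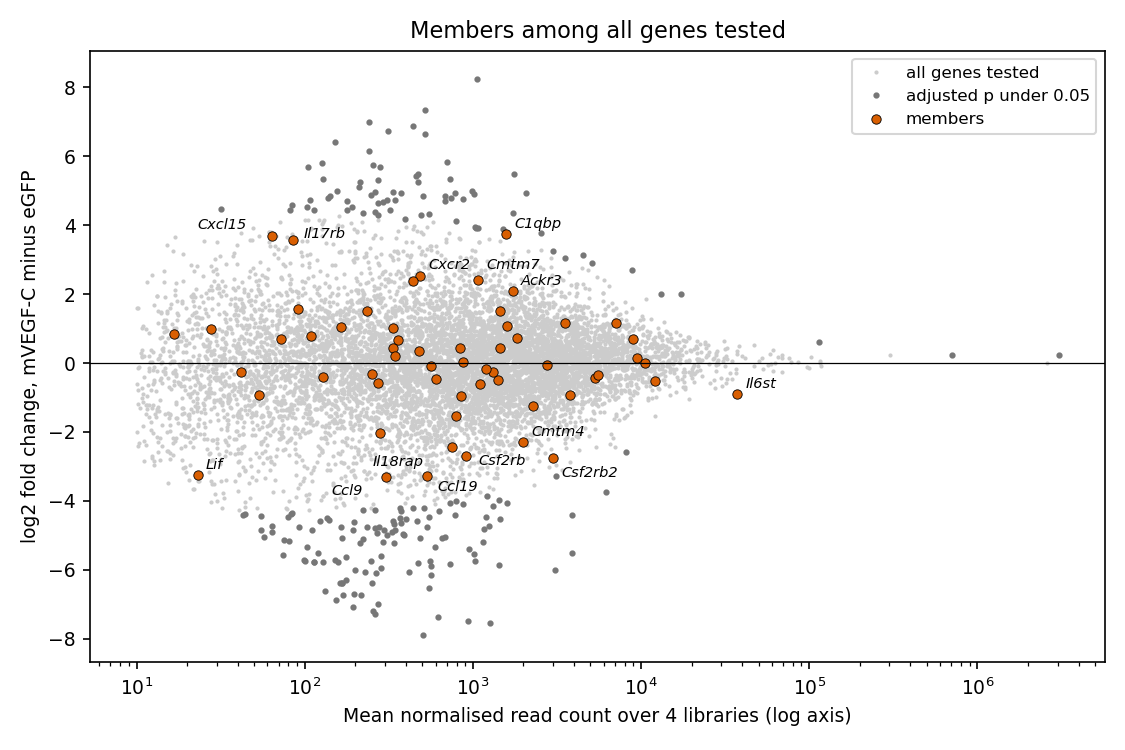
Log2 fold change (mVEGF-C minus eGFP) against mean normalised read count (log axis) for the 9063 genes tested, with called genes in dark grey and the 58 members in orange. The members lie within the spread of the other genes, and Il6st stands at the high-count edge with -0.90.

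Downstream of these receptors, 33 of 51 listed signalling genes were tested here. limma called 0 of them, as did edgeR and DESeq2. At an unadjusted limma p under 0.05, 1 of the 33 was higher (Irak4), against 5.09% of all genes. Another 3 of the 33 were lower (Tollip, Gnai3 and Rgs16), against 6.7% of all genes. In either direction the share over all genes was 11.8%. Stat3, the main transcription factor downstream of gp130, had 7081 and 8948 in mVEGF-C libraries, against 6032 and 5601 in eGFP libraries (log2 fold change 0.45; limma, adjusted p = 0.893). Jak1, the kinase bound to gp130 and interferon receptors, stood at -0.18. The median log2 fold change of the list was -0.14, against -0.02 for all genes.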

How the data were processed

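The authors deposited 1 table of a signal in the form of normalised counts for 9114 genes in 4 libraries. The tools named in the submitters' processing notes are FastQC, Trimmomatic, Salmon and DESeq2, with the build mm10. The sources used here give no versions, strand setting or annotation. Every value was a whole multiple of 1 step per library (100% whole within 0.001), so whole reads were recovered. These cover the genes of the table only. The main test was limma 3.58.1 in R 4.3.3 (lmFit, eBayes with trend) on log2(value + 1), for 9063 genes with a mean of at least 10, two-sided, Benjamini-Hochberg adjusted. This scale understates the fold change of low genes. It left 2 residual degrees of freedom, and the prior degrees of freedom were infinite, so a gene's own replicate spread did not enter its p-value. edgeR 4.0.16 and DESeq2 1.42.0 on the recovered reads were among 17 alternatives. Coordinates and exon lengths, 1-based, are from GENCODE vM21 on GRCm38. Values in every library are given for members called by limma, edgeR or DESeq2, with an unadjusted limma p under 0.05, among the 10 most abundant, or in a listed ligand-receptor or receptor-chain pair; other members named were picked after their values were seen. Members and lists were chosen with earlier results of these data known. Some genes of the members and lists are not reported here.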

Additional observations from a re-analysis of the deposited data

How the results depend on the processing

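The main limma fit called none of the members, and neither did the fits with another pseudocount, filter, robust or untrended eBayes, or scaling to 1 total or the upper quartile. Quantile normalization called 1 lower, edgeR called 1 higher and 1 lower with TMM and with the deposited scaling, and DESeq2 called 5 higher and 3 lower. With 1 library left out, 0 to 2 members were called higher and 0 to 1 lower. Over all genes, 75 were higher and 119 lower in the main fit, against 15 and 26 without trend, 79 lower in edgeR with either scaling, and 289 and 329 in DESeq2. With 1 library left out these counts ran from 5 to 104 higher and from 0 to 188 lower, the lowest of both without eGFP 2. Osmr turned from 0.01 to -0.071 with libraries scaled to 1 total, -0.061 by upper quartile and -0.13 by quantile normalization. With 1 library left out, 5 of the 27 members described in full changed sign. They were Osmr (-0.14 to 0.17), Cxcl12 (-0.38 to 1.77), Ifnar1 (-0.83 to 0.11), Ifnar2 (-0.48 to 0.37) and Ifngr2 (-0.35 to 2.50). The cause was not tested. With the replicate block, 0 members, 74 genes higher and 129 lower were called. Equally numbered libraries were not treated as pairs in the main fit. Their deviations from the group means did not correlate (r = 0.00013 over 9063 genes), but this 1 correlation cannot settle whether they were paired. With 2 libraries per group and a limit on the spread between replicates, the spread is understated, and intervals rest on the trend alone.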

Other observations

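Some members that lie close together in the genome (GRCm38) had log2 fold changes of differing sign. C1rl and C1ra on chromosome 6 stood at -1.53 and 0.44, and Cmtm3 and Cmtm4 on chromosome 8 at 0.03 and -2.29. Cmtm6 and Cmtm7 on chromosome 9 stood at -0.17 and 2.42. Others had the same sign, such as Csf2rb2 and Csf2rb on chromosome 15 at -2.75 and -2.70. Clusters on chromosomes 1 and 16 are given in more detail. On chromosome 1, Il1r1 (40225080 to 40317257), Il1rl1 (40429570 to 40465415), Il18r1 (40465552 to 40500854) and Il18rap (40515362 to 40551705) had log2 fold changes of -0.27, 0.70, 1.50 and -2.44. The ratio of Il18r1 to Il18rap was 2.33 and 2.06 in mVEGF-C libraries, against 0.441 and 0.0452 in eGFP libraries, a quantity chosen after the values were seen. On chromosome 16, Ifnar2 (91372783 to 91405589), Ifnar1 (91485238 to 91507441) and Ifngr2 (91547072 to 91565623) stood at -0.06, -0.36 and 1.07. Without mVEGF-C 2, Ifngr2 was at -0.35.

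Some members share part of their exon bases with another annotated gene, and reads from the shared bases are uncertain, on opposite strands because the strand setting of the counting is not given. Exons of Il2rg share 30.5% of their bases with the protein-coding entry Gm20489 on the same strand. Those of Cxcl11 share 41.7% with the processed pseudogene Gm2673 on the opposite strand, those of C1qtnf1 share 20.5% with the antisense gene Gm11747, and those of Ccr9 share 18.8% with AC165425.1 on the opposite strand. Exons of Cxcl16 share 18.3% with Zmynd15 on the opposite strand, and those of Il16 share 15.3% with Stard5 on the opposite strand. Il1bos is annotated as antisense to Il1b and stood at -0.31.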
